A study of Mus musculus with 24 samples.

Results

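The loss of Smad2 in paused embryonic stem cells was described over every row of the authors' deposited table for paused cells, 19979 genes of the 20625 found in either deposited table. No gene was chosen by its change or its p. The cells were E14, an established line of mouse embryonic stem cells, grown on gelatin in serum with leukaemia inhibitory factor (LIF). The groups were Paused WT, Paused Smad2_KO1 and Paused Smad2_KO2, with 4 libraries each, 12 of the 24 libraries of the series. All 3 groups, the wild type included, received INK128, an inhibitor of the kinase mTOR, at 200 nM for 12 h, and each knockout is 1 of 2 lines whose allele the labels do not describe. The remaining 12 libraries are the same genotypes without INK128. The table gives 1 mean, 1 log2 change and 1 standard error (SE) per gene over all libraries compared, so no value of a single library or of a single knockout line is shown here. Where nothing says that replicates came from separate cultures, a p measures only the spread between these samples, which may be technical.

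Smad2 carries signals of Nodal and activin from receptors at the cell surface to the nucleus, where it acts with Smad4 and with DNA-binding partners such as Foxh1. In the early embryo this pathway keeps epiblast cells able to form mesoderm and endoderm, and its target genes include its own secreted inhibitors, Lefty1 and Lefty2. Inhibition of mTOR slows growth and translation and holds embryonic stem cells in a state that resembles a blastocyst in diapause. The series title names Pparg, a nuclear receptor of fat metabolism, as the gene repressed by the pathway during pausing. The comparison addressed the transcripts that differed between the knockout lines and the wild type in that state. Other differences between the knockout lines and the wild type were not tested and could not be separated from the loss of Smad2. Libraries of the same line do not sample such differences, and the table holds no value of a single line.

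Promoter stretches are shown for 2 families whose neighbouring genes moved together and for 1 gene with a very large fall. Each is the 250 bases before a RefSeq start, on the + strand of GRCm38.p6. The first 4 belong to guanylate-binding proteins, interferon-inducible GTPases that defend cells against microbes. They lie side by side at chr3:142530086-142530335 (Gbp7), chr3:142559794-142560043 (Gbp3), chr3:142594597-142594846 (Gbp2b) and chr3:142620413-142620662 (Gbp2), and all 4 genes fell. Capitals mark the core of the interferon-stimulated response element, searched as TTTC, any 2 bases and TTTC again. The stretch of Gbp3 belongs to 1 of its 2 RefSeq starts and holds 2 overlapping matches, at bases 206 and 212.

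Gbp7: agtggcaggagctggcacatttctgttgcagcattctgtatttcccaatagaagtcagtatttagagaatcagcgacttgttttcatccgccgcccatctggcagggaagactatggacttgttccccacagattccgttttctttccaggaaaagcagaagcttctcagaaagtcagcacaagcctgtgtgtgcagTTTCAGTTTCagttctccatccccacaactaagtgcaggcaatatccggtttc

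Gbp3: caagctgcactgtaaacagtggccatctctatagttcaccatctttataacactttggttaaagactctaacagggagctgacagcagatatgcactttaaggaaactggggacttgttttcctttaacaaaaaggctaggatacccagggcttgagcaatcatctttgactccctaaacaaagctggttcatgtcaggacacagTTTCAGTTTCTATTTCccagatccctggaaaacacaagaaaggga

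Gbp2b: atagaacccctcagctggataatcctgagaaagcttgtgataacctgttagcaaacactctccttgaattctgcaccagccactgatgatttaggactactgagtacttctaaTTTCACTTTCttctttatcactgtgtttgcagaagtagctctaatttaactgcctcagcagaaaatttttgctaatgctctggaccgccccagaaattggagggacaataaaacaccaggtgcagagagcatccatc

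Gbp2: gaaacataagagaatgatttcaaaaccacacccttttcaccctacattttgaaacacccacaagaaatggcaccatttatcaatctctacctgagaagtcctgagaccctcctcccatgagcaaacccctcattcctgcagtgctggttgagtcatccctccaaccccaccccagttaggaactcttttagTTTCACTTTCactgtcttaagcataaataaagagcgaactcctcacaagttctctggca

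Searched on both strands, this core was found in 2.98% of 32851 RefSeq promoter stretches of this length. The single match of Gbp7 begins 53 bases before its start, that of Gbp2b 137 bases and that of Gbp2 59 bases before. Without gaps, any pair of these 4 stretches had an identity of 30.7% to 38.8%. The next stretch is that of Sp5, a transcription factor gene that Wnt signalling induces, at chr2:70474673-70474922. Capitals mark CTTTGAT, the letters that factors of the TCF and LEF family bind, which 3.21% of the same promoter stretches hold. No other motif searched was found in Sp5. The stretches of T and Wnt3, genes described below that fell too, held 0 matches to CTTTGAT. A match of letters is a description and not a binding site.

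Sp5: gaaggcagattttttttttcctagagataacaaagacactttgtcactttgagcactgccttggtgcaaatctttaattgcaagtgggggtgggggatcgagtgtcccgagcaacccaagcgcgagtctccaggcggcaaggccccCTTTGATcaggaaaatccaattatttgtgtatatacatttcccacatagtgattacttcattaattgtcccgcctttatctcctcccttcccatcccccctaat

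The last 4 stretches belong to copies of Serpinb9, serine protease inhibitor genes of the placenta, which all rose. They lie at chr13:33192705-33192954 (Serpinb9d), chr13:33249358-33249607 (Serpinb9e), chr13:33323827-33324076 (Serpinb9f) and chr13:33484540-33484789 (Serpinb9g). They are shown as neighbouring copies that rose together, and their likeness is that of promoters, not of transcripts. None of the motifs searched was found in them, so they carry no capitals.

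Serpinb9d: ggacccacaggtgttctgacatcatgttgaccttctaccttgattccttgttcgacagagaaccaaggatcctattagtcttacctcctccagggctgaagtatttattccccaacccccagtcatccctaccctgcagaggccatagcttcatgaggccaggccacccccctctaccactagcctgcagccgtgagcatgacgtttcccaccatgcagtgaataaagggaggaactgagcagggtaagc

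Serpinb9e: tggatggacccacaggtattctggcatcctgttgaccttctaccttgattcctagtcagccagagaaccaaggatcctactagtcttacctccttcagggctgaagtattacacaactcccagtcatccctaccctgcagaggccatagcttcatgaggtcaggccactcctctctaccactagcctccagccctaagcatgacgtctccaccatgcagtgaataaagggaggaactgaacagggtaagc

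Serpinb9f: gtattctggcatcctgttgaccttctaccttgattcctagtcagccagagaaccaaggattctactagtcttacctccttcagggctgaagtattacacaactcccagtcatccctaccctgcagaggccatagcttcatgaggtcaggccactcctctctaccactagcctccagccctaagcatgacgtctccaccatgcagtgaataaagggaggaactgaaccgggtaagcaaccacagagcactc

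Serpinb9g: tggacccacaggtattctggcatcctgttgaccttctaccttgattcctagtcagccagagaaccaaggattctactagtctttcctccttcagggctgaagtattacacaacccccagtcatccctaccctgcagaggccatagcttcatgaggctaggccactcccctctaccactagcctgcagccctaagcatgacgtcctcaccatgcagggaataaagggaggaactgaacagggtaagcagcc

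The stretch of Serpinb9e matched that of Serpinb9f at 99.1% and that of Serpinb9g at 95.9% of bases, and Serpinb9f matched Serpinb9g at 95.4%, each without gaps and at the best offset. Serpinb9d, compared without gaps, matched the other 3 at 54.3% to 55.5%. An inserted or missing base shifts all bases after it, so such a value can understate likeness. These stretches lie before the start, outside the transcript, and the transcripts were not compared. Reads from gene copies can be split between them, so their separate values are uncertain and the family is best read as a whole.

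Smad2 was the targeted gene, and its transcript fell by 0.63 (log2, SE 0.06, adjusted p 4.1e-26), to 64.6% of the wild type, at a mean of 3214 normalized counts in the authors' deposited table. A transcript that a knockout allele still makes is counted in this value, so it checks the labels and not the protein. The table does not name its numerator, and changes are read as knockout over wild type because Smad2 is lower, a reading that would turn every direction if it were reversed. At an adjusted p under 0.05 (DESeq2, Benjamini-Hochberg), 8504 genes were called, 42.6% of those tested. Of all genes tested 20.5% were called higher and 22% lower, while 4.89% were called higher and 2.21% lower by at least 2-fold. The median called change was 1.29-fold, and 65.5% of the calls were under 1.5-fold. The median change of all genes was 0.00, the value against which the medians of gene groups are read. Depth per library is unknown, and the SE is the only measure of precision, with a median of 0.10 over all genes and 0.06 over the 11006 genes whose mean was 221 normalized counts or more, called the minimum mean here.

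**Figure D1:**
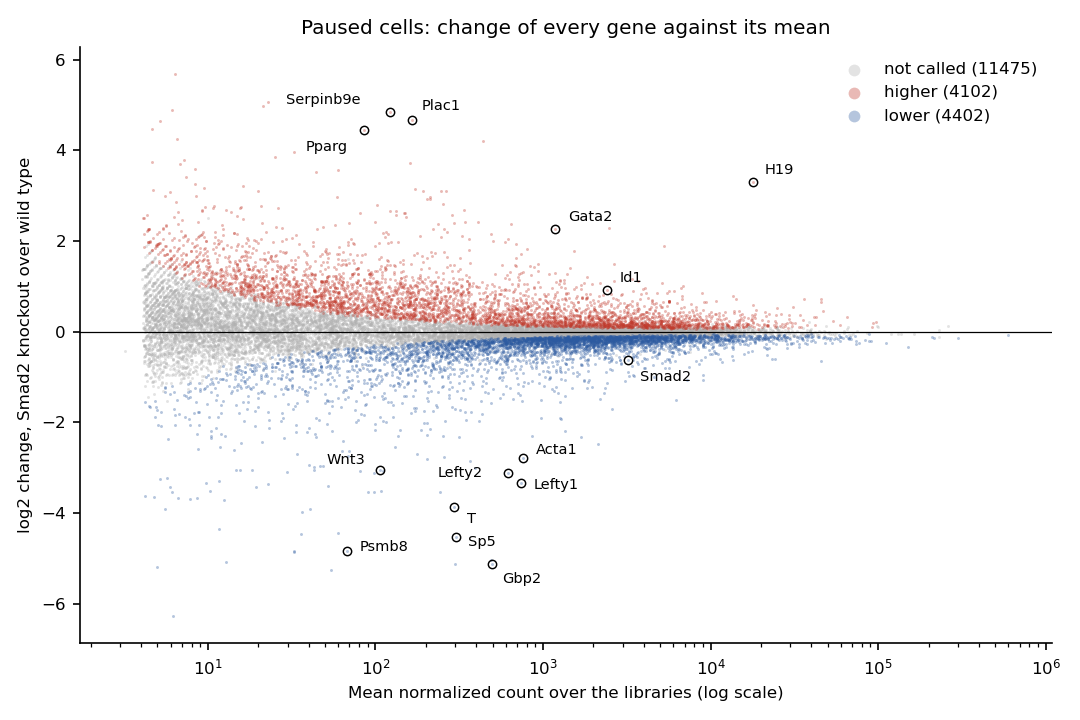
Each point is 1 gene of the paused table. The x axis is the mean normalized count (log scale) and the y axis the log2 change of knockout over wild type. Red marks 4102 genes called higher and blue 4402 called lower. H19 stands alone at the upper right at 3.30, and Gbp2 and Psmb8 lie lowest among the labelled genes at -5.13 and -4.84.

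Changes were tilted by abundance. When the genes of the authors' deposited table were put into 10 equal groups by mean count, the median log2 change was 0.27 in the lowest group, 0.21, 0.16 and 0.12 in the next 3, and between -0.07 and -0.01 from the fifth group to the highest. Rises of at least 2-fold made up 13.4% of the genes in the second group and 0.15% in the highest. A group of rarely counted genes with a median near 0.2 therefore lies at the level of other rare genes. From the seventh group to the highest, 32.7% to 34.3% of genes were called lower and 17.0% to 20.9% higher. Counts of falls in lists of abundant genes are read beside these shares too. The cause of this tilt was not tested. In bulk RNA, moreover, more cells of a type and more RNA per cell cannot be told apart.

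**Figure D2:**
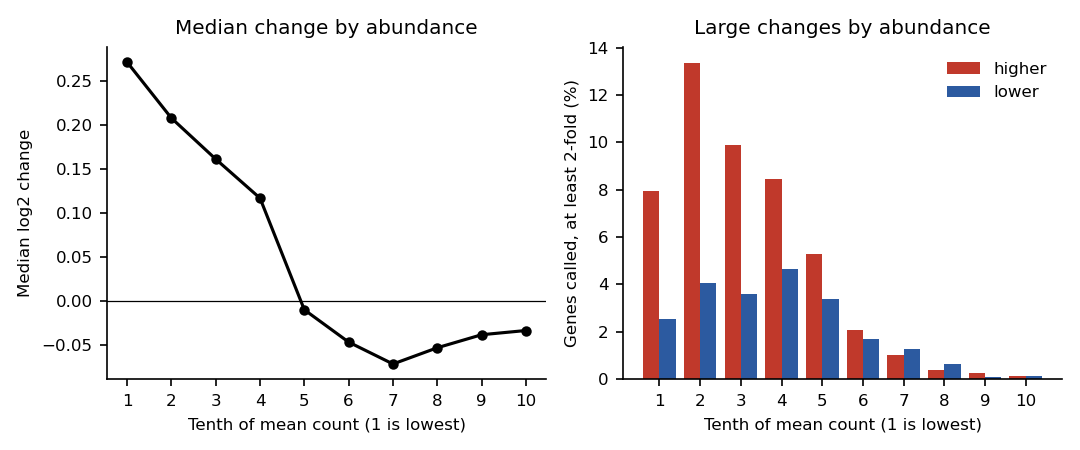
The left panel gives the median log2 change and the right panel the percent of genes called at least 2-fold higher (red) or lower (blue), for 10 equal groups of genes ordered by mean count. The median passes from 0.27 in the lowest group to -0.03 in the highest, and large rises are rare above the sixth group.

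The culture was first checked against markers. Of 14 markers of embryonic stem cells, all of them measured, 3 rose and 3 fell. In the authors' deposited table the core factors stood at -0.08 (SE 0.04) for Pou5f1, -0.06 (SE 0.05) for Sox2, -0.05 (SE 0.06) for Esrrb and 0.07 (SE 0.06) for Zfp42, none of them called. Nanog rose by 0.18 (SE 0.07, adjusted p 0.0358) and Klf4 by 0.26 (SE 0.06). Of 14 markers of feeder fibroblasts, 9 were measured, at a median mean of 33.5 normalized counts, and 5 fell. Dcn, Lum, Prrx1, Fap and S100a4 are not among the genes of the table. Of 14 markers of blood and endothelium 10 were measured, of which 4 rose and 3 fell. Cdh5, the cadherin of endothelial junctions, rose by 3.10 (SE 0.24) and Pecam1 by 0.41 (SE 0.07). Kdr and Tie1, from the same list, fell by 0.74 (SE 0.19) and 0.52 (SE 0.14), so its members had no shared direction. Ptprc and Lyz2 are not in the table.

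Nodal, its co-receptor and its receptors changed little, while several secreted inhibitors and targets fell steeply. Among the ligands, Nodal itself fell by 0.14 (SE 0.04, adjusted p 0.00226) and Gdf3 stood at 0.06 (SE 0.06, not called) in the authors' deposited table. The co-receptor Tdgf1 fell by 0.21 (SE 0.05). The type I receptor Acvr1b fell by 0.11 (SE 0.05) and the type II receptor Acvr2b by 0.25 (SE 0.05), whereas Acvr2a (-0.02) and Tgfbr1 (0.00) were not called. Inhba, which codes for a subunit of activin, fell by 3.91 (SE 0.73) from a very low mean of 5.53 normalized counts. The activin-binding proteins moved apart: Fst fell by 1.42 (SE 0.34) and Fstl3 rose by 1.19 (SE 0.21). In all, 9 of 18 ligand, receptor and inhibitor genes fell and 3 rose, with a median of -0.11.

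Of the Smad genes, Smad4, the shared partner, fell by 0.20 (SE 0.05) in the authors' deposited table. Smad3, the closest relative of Smad2, was at -0.21 (SE 0.09, adjusted p 0.0546) and did not pass the threshold. Foxh1, the DNA-binding partner, was at 0.05 (SE 0.06, not called). The inhibitors that the pathway itself induces were lower: Smad7 fell by 0.44 (SE 0.06) and Skil by 0.32 (SE 0.07). Ski, a corepressor related to Skil, fell by 0.68 (SE 0.06). The Smads of the BMP branch were split. Smad1 fell by 0.14 (SE 0.06) and Smad5 fell by 0.15 (SE 0.05), while the inhibitory Smad6 rose by 0.67 (SE 0.06) and Smad9 by 1.28 (SE 0.19). In all, 2 of 19 Smad and partner genes rose and 8 fell.

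Genes known to respond to Nodal were lower, and none was higher. Of 13 measured, 8 fell and 0 rose, with a median of -0.29 in the authors' deposited table. Large falls were those of the secreted inhibitors Lefty1 (-3.34, SE 0.21) and Lefty2 (-3.13, SE 0.12) and of Mixl1, a factor of mesendoderm (-1.60, SE 0.41). The knockout levels correspond to 9.87% of the wild type for Lefty1 and 11.5% for Lefty2. Eomes (-0.06, SE 0.18) and Gsc (-0.29, SE 0.35), targets in the forming endoderm, were not called. This list repeats a result already known from these data and is not independent support for its direction.

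Some neighbours of the Lefty genes on chromosome 1 (GRCm38.p6) fell as well. Lefty2 lies at chr1:180893108-180899107 and Lefty1 at chr1:180935022-180938401. Just beyond Lefty1 lies Tmem63a, a membrane channel gene, which fell by 1.95 (SE 0.17) in the authors' deposited table. Gm39714, on the far side of Lefty2, fell by 1.71 (SE 0.34). Within 250 kb of Lefty1, 9 of 15 neighbours fell and 1 rose, with a median of -0.13, beside 22% lower over all genes. The 9 include the Nodal targets Lefty2 and Mixl1 and small falls such as Nvl (-0.09, SE 0.03) and Wdr26 (-0.12, SE 0.04). The 1 rise was that of Ephx1 (0.32, SE 0.09), and Lin9 (-0.05) and Acbd3 (0.07) were not called. The neighbours were looked at after their values were seen.

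**Figure D3:**
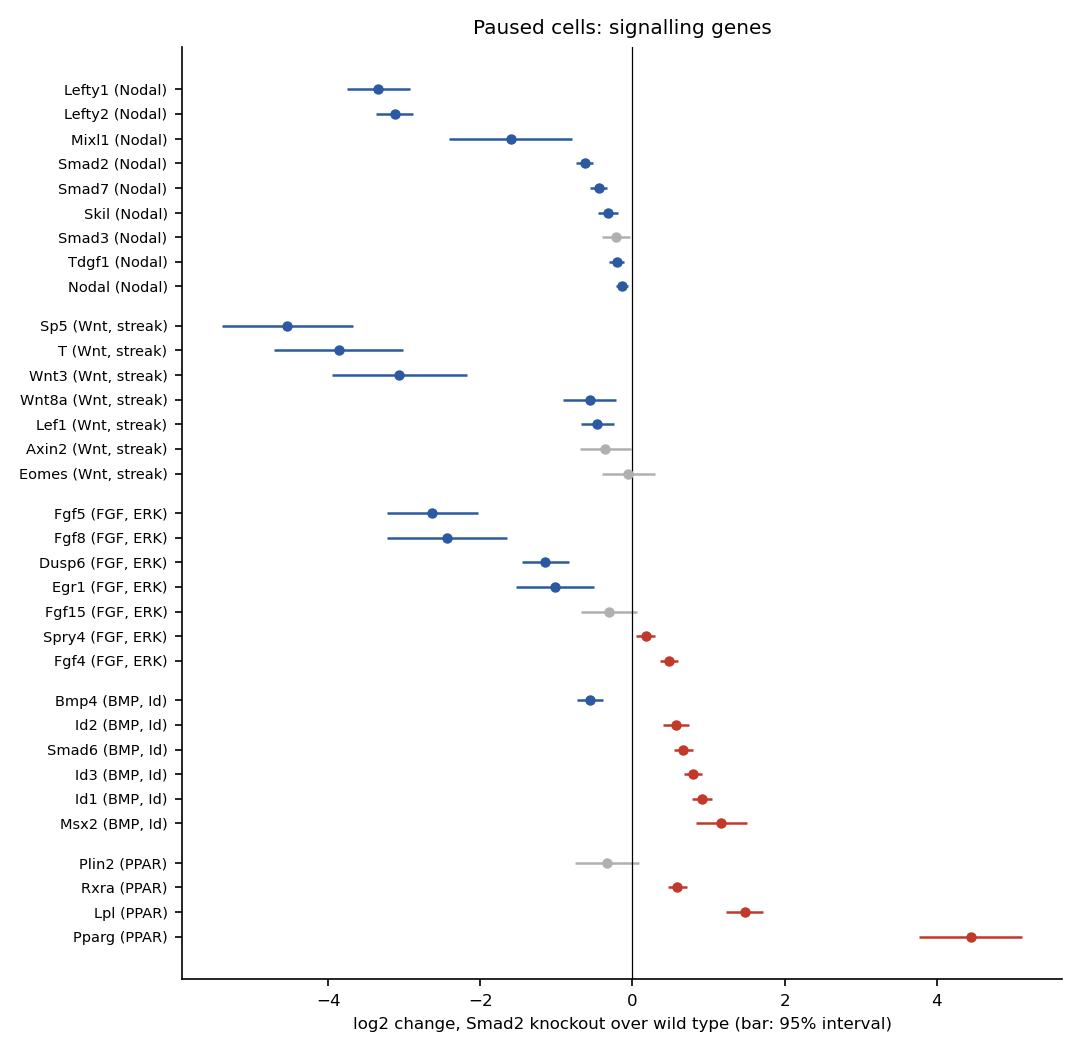
Points are log2 changes of knockout over wild type for genes of 5 signalling groups, and bars are 95% intervals from the standard error. Red is called higher, blue called lower and grey not called. Lefty1 and Lefty2 lie below -3, Sp5 and T below -3.5, the Id genes above 0.5 and Pparg above 4.

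Several Wnt and primitive streak genes fell steeply, 6 of 25 and 7 of 22 by at least 2-fold. In the authors' deposited table the mesoderm gene T (brachyury) fell by 3.86 (SE 0.43), to 6.88% of the wild type. Sp5 fell by 4.54 (SE 0.44), to 4.31%, and the ligand Wnt3 fell by 3.06 (SE 0.45), to 12%. Of 25 Wnt pathway genes 16 fell and 3 rose, with a median of -0.47. This list held Trim67, a ubiquitin ligase gene that fell by 5.12 (SE 0.37) and was placed in it with earlier results known, and without it 15 of 24 fell and 3 rose. The effector Lef1 fell by 0.47 (SE 0.11), the feedback inhibitor Notum by 0.48 (SE 0.11) and Rnf43, which removes Wnt receptors from the membrane, by 1.27 (SE 0.28). Axin2, the most widely used reporter of the pathway, was at -0.35 (SE 0.17, adjusted p 0.0762) and not called.

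Wnt ligands other than Wnt3 were also lower. In the authors' deposited table, 9 of 16 Wnt ligand genes fell and 1 rose, with a median of -0.72, a count made after the values were seen. Wnt7a fell by 2.41 (SE 0.50), Wnt4 by 2.02 (SE 0.36), Wnt5a by 1.54 (SE 0.22) and Wnt8a by 0.56 (SE 0.18). Only 1 of these 16 genes reached the minimum mean of 221 normalized counts. That mean pools wild-type and knockout libraries, so it understates the wild-type level of a gene that fell.

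Of 22 measured genes of the primitive streak and mesendoderm, 11 fell and 4 rose, with a median of -0.52. Besides T, Sp5 and Wnt3, the authors' deposited table has Nkx1-2, a homeobox gene of the caudal epiblast, at -3.72 (SE 0.65), Fgf8 at -2.44 (SE 0.40) and Cdx1 at -0.92 (SE 0.25). The list also holds genes of extraembryonic and endoderm lineages, and the 4 that rose were of this kind: Hand1 (2.69, SE 0.26), Gata6 (1.35, SE 0.17), Sox17 (1.28, SE 0.32) and Gata4 (0.59, SE 0.13). Only 4 of the 22 reached the minimum mean, T and Sp5 among them at 296 and 302 normalized counts. The median mean of the list was 53.8, pooled over wild-type and knockout libraries.

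FGF and ERK genes were lower with 1 clear exception. In the authors' deposited table, 15 of 22 fell and 3 rose, with a median of -0.33. The exception was Fgf4, the main FGF made by embryonic stem cells, which rose by 0.48 (SE 0.06). Fgf5, the FGF of the formative epiblast, fell by 2.63 (SE 0.31) and Fgf17 by 0.99 (SE 0.09). The receptor Fgfr1 fell by 0.26 (SE 0.07). Among genes that ERK activity induces, Dusp6 fell by 1.14 (SE 0.16), Egr1 by 1.02 (SE 0.26), Dusp4 by 0.75 (SE 0.15), Spry1 by 0.48 (SE 0.05) and Spry2 by 0.22 (SE 0.07). Spry4 rose by 0.17 (SE 0.07), and Etv4 was at 0.03 (SE 0.12, not called).

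Formative factors fell together with Fgf5 but not as a block. Pou3f1, a POU factor of the formative epiblast, fell by 1.92 (SE 0.24) and Sox3 by 0.72 (SE 0.22) in the authors' deposited table, while Otx2, a factor of the same stage, rose by 0.47 (SE 0.17). Lin28b, which blocks let-7 miRNA, fell by 0.65 (SE 0.06), and its paralog Lin28a was at 0.01 (SE 0.05, not called). Of 19 core and formative factors 6 rose and 7 fell. Among 16 naive factors 5 rose and 3 fell: Tbx3 rose by 0.79 (SE 0.05), whereas Gbx2 fell by 1.09 (SE 0.21) and Dppa3 by 0.62 (SE 0.14). LIF and STAT3 genes had 8 of 16 lower and 3 higher, with Junb at -0.74 (SE 0.15) and Cish at -0.54 (SE 0.10), and with Stat3 (-0.11) and Socs3 (-0.01) not called.

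BMP targets went up while the ligand went down. The Id genes code for inhibitors of bHLH factors and are direct targets of BMP signalling. In the authors' deposited table Id1 rose by 0.91 (SE 0.07), Id3 by 0.80 (SE 0.06), Id2 by 0.57 (SE 0.09) and Id4 by 0.47 (SE 0.16). Msx2, a homeobox target, rose by 1.17 (SE 0.17), and Dkk1, a secreted Wnt inhibitor, by 1.22 (SE 0.34). Bmp4 fell by 0.56 (SE 0.09). Of 20 genes 9 rose and 2 fell, beside 20.5% and 22% over all genes.

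Trophoblast genes had some of the largest rises. Of 22 measured, 12 rose and 2 fell, with a median of 0.77 in the authors' deposited table, and 9 rose at least 2-fold. Plac1, a placental surface protein gene, rose by 4.67 (SE 0.32), or 25.4-fold. Hand1 (2.69), the homeobox gene Esx1 (2.41, SE 0.17), Gata2 (2.27, SE 0.16) and Gata3 (2.04, SE 0.15), which all code for trophoblast factors, followed. The homeobox genes Rhox6 (1.49, SE 0.13) and Rhox9 (1.34, SE 0.20), Ascl2 (1.01, SE 0.13) and Tfap2a (0.82, SE 0.16) rose as well. Cdx2, Elf5 and Tfap2c, factors of trophoblast stem cells, were not among the rises: Cdx2 fell by 0.92 (SE 0.35, adjusted p 0.0236), Elf5 was at 0.97 (SE 0.60, not called) and Tfap2c at -0.00 (SE 0.08, not called). The keratins Krt8 (-0.44, SE 0.40) and Krt18 (-0.41, SE 0.37) were not called and had SEs among the 20 widest of genes above the minimum mean, and Krt7 rose by 1.26 (SE 0.35). Nrk, a kinase gene of the placenta on the X chromosome, was among the 15 largest rises above the minimum mean, at 2.28 (SE 0.20).

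The Serpinb9 copies on chromosome 13 are placental genes too. Serpinb9d rose by 5.07 (SE 0.79), Serpinb9c by 4.97 (SE 0.82), Serpinb9e by 4.85 (SE 0.45), Serpinb9g by 3.57 (SE 0.37) and Serpinb9f by 2.98 (SE 0.32) in the authors' deposited table. Their means were low, from 21.2 to 121.8 normalized counts. Serpinb9b was at 0.55 (SE 0.25, not called), and Serpinb9, which protects killer lymphocytes from their own granzyme B, fell by 1.17 (SE 0.34). This family was chosen after its values were seen.

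Primitive endoderm genes rose nearly as a group. Of 21 measured, 16 rose and 2 fell, with a median of 0.68 in the authors' deposited table. The lineage factors Gata6 (1.35, SE 0.17), Sox17 (1.28, SE 0.32), Sox7 (1.27, SE 0.21), Hnf4a (1.56, SE 0.15) and Gata4 (0.59, SE 0.13) rose. So did the receptor Pdgfra (1.70, SE 0.12), the proteoglycan core Srgn (2.62, SE 0.24) and the endocytic receptor parts Cubn (2.20, SE 0.22) and Amn (0.66, SE 0.12). Basement membrane genes were mixed: Col4a1 (0.96, SE 0.20), Col4a2 (0.68, SE 0.23) and Lama1 (0.54, SE 0.15) rose, Lamc1 rose by 0.13 (SE 0.04) and Lamb1 fell by 0.45 (SE 0.07). With the minimum mean, 10 genes remained, of which 6 rose and 2 fell with a median of 0.21.

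**Figure D4:**
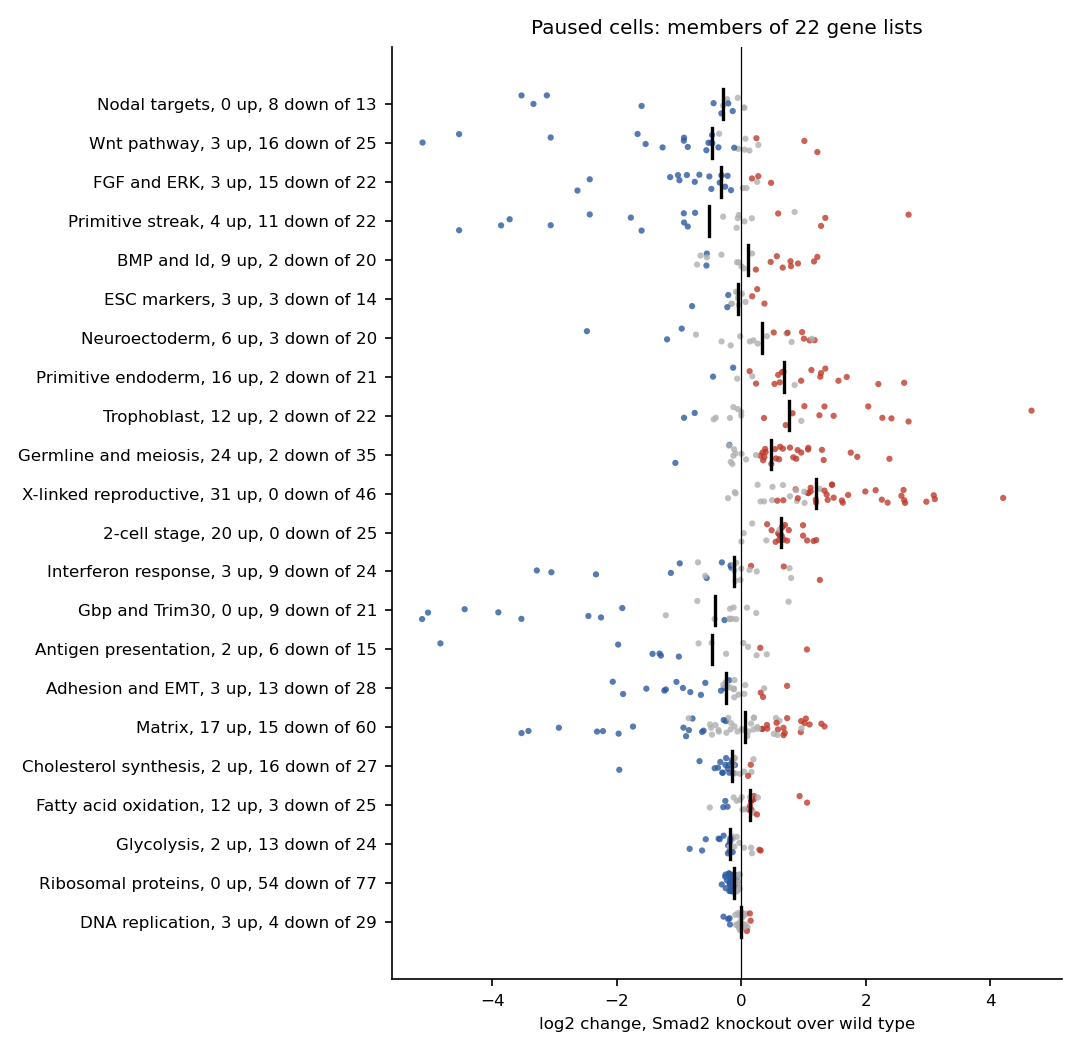
Each row is a gene list, each point a member and its log2 change of knockout over wild type, and each black bar the median. Red is called higher, blue called lower and grey not called. Trophoblast, germline, X-linked and 2-cell stage lists lie mostly to the right, Nodal, Wnt and FGF lists to the left, and ribosomal proteins form a tight cluster just below 0.

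Neuroectoderm genes showed no shared direction, with 6 of 20 higher and 3 lower. Nes, an intermediate filament of neural progenitors, fell by 2.48 (SE 0.30) and Pax6 by 1.19 (SE 0.17) in the authors' deposited table, while Sox1 rose by 1.18 (SE 0.24) and Neurog3 by 1.10 (SE 0.19). The median of 0.34 turned to -0.49 over the 6 genes above the minimum mean. Of 31 Hox genes 4 rose and 0 fell. Their median of 0.32 lay close to that of other rare genes, since the median mean of the Hox genes was 11.5 normalized counts.

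Germline genes rose widely. Of 35 measured, 24 rose and 2 fell, with a median of 0.48 in the authors' deposited table. Stra8, which starts meiosis, rose by 2.38 (SE 0.21). The piRNA pathway gene Asz1 rose by 1.87 (SE 0.21), Tdrd9 by 1.32 (SE 0.17), Mael by 0.84 (SE 0.07) and Piwil2 by 0.37 (SE 0.06). Hormad2, of the meiotic chromosome axis, rose by 1.76 (SE 0.10), the cohesin gene Smc1b by 1.08 (SE 0.11) and the RNA-binding gene Dazl by 1.30 (SE 0.09). Fkbp6, of the same pathway in testis, rose by 1.79 (SE 0.08) and had 1 of the 10 largest statistics of the table. Genes of the early germ cell did not follow, since Nanos3 fell by 1.06 (SE 0.16), and Prdm1 (-0.20) and Kit (0.00) were not called. Ddx4 (-0.13), another germline gene, was not called either.

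Families of the X chromosome that are active in the germline and placenta mostly rose. Of 46 genes of the Nxf, Xlr, Rhox, Mage and related families, 31 rose and 0 fell, beside 20.5% and 22% over all genes. Their median was 1.2, and 27 rose at least 2-fold. Most were rare, with a median mean of 51.2 normalized counts. With the minimum mean, 12 genes remained, of which 9 rose and 1 fell with a median of 1.56. The list also took in Nxf1, the autosomal general mRNA exporter, which was not called. Nxf7 rose by 4.21 (SE 0.25), or 18.5-fold, the largest rise in the authors' deposited table above the minimum mean. Xlr5b rose by 3.11 (SE 0.19), Xlr5a by 2.98 (SE 0.19), Xlr4a by 2.61 (SE 0.17), Xlr3a by 1.99 (SE 0.09) and Rhox1 by 1.2 (SE 0.14), and copies within each of these families can share reads. Rhox5 was an exception at -0.21 (SE 0.10, not called). On the X chromosome as a whole 12.2% of 694 genes were called higher by at least 2-fold, beside 4.58% of 17698 autosomal genes, and 8.92% of the X genes outside these families. The median change of X-linked genes was -0.00, so the tilt was in a minority of genes.

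Genes of the 2-cell stage, which a small share of embryonic stem cells expresses at any time, rose as well. Of 25 measured, 20 rose and 0 fell, with a median of 0.63 in the authors' deposited table. Zscan4c rose by 0.65 (SE 0.16), Zscan4f by 0.66 (SE 0.16), the factor Duxf3 by 1.16 (SE 0.19), Tmem92 by 1.06 (SE 0.19) and Arg2 by 1.21 (SE 0.16). Zfp352 (0.40, SE 0.18) and Tcstv1 (0.18, SE 0.36) were not called. None of the 20 calls held when the statistic was scaled to the middle spread of the table. Prame-like genes, repeated on several chromosomes and active in embryo and testis, had 8 of 10 higher and 0 lower, led by Pramef17 (2.79, SE 0.20), Pramel6 (2.20, SE 0.17) and Pramel7 (1.99, SE 0.14). This family was chosen after its values were seen.

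Tandem families of little-known genes made up most of the other regions with rises. Of 767 windows of 2 Mb with at least 8 genes, 7 had at least 50% of their genes called higher by 1.5-fold or more, beside 9.65% of the genes in all windows. They held 11 of 15 genes at chr4:72000001-74000000, 7 of 11 at chr10:104000001-106000000, 9 of 15 Speer and related genes at chr5:14000001-16000000 and the Zscan4 genes at chr7:10000001-12000000 (GRCm38.p6). Another window, at chr5:118000001-120000000, held Tbx3, its antisense genes and Tbx5. A further 21 genes that RefSeq assigns to chromosome 5 on scaffolds outside its sequence all rose at least 1.5-fold in the authors' deposited table, by 0.64 to 1.29, but such near-copies share reads. The largest share of falls of that size was at chrX:50000001-52000000, where 4 of 8 genes fell and 2 rose that far. The next largest was at chr3:142000001-144000000, where 4 of 9 genes fell that far, all of them Gbp genes, and 0 rose.

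Rex2 and Zfp600 were among the 10 most abundant genes that changed at least 1.5-fold. Rex2 rose by 0.65 (SE 0.05) at a mean of 45644 normalized counts, Zfp600 by 0.72 (SE 0.05) at 36352 and Zfp951 by 1.49 (SE 0.06, adjusted p 4.25e-151) at 2662 in the authors' deposited table. Gm13139 rose by 0.90 (SE 0.04). Zinc-finger copies lie in tandem near Rex2, and their reads can be shared. Of 5 neighbours there 3 rose and 2 fell, beside 20.5% and 22% over all genes.

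H19 and Igf2, a pair of oppositely imprinted genes, both rose. H19, a noncoding RNA made from the maternal copy, rose by 3.30 (SE 0.10, adjusted p 1.63e-249), or 9.83-fold, at a mean of 17817 normalized counts in the authors' deposited table. It had the largest statistic of all genes. Igf2, the fetal growth factor made from the paternal copy, rose by 1.08 (SE 0.28) and its antisense gene Igf2os by 1.40 (SE 0.32), and these overlapping genes may share reads. Among the neighbours, Tnnt3 rose by 1.18 (SE 0.23) and Prr33 by 0.91 (SE 0.24), while Mrpl23, which lies between them and H19, was at 0.09 (SE 0.05, not called). Within 300 kb of H19 5 of 10 neighbours rose and 0 fell, beside 20.5% higher and 22% lower over all genes. The 5 include Igf2 and Igf2os, and Tnnt3 and Prr33 had low means of 96.2 and 34.6 normalized counts.

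Imprinted genes had no shared direction. Of 22 maternally expressed genes, H19 included, 6 rose and 6 fell, and of 26 paternally expressed genes, Igf2 included, 10 rose and 5 fell. The growth inhibitor Cdkn1c rose by 0.84 (SE 0.16) in the authors' deposited table, Plagl1 by 0.83 (SE 0.10) and Peg10 by 0.72 (SE 0.23). Grb10, an adaptor that dampens insulin signalling, fell by 1.06 (SE 0.16), and Nnat fell by 0.92 (SE 0.23). Meg3 was at -0.16 (SE 0.15, not called). Among IGF pathway genes 7 of 16 fell and 4 rose: the binding protein Igfbp3 fell by 2.20 (SE 0.35), the adaptor Irs1 by 1.40 (SE 0.27) and the receptor Igf1r by 0.32 (SE 0.09).

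Gbp2 and Gbp2b, whose promoters are printed above, had the largest and the third largest falls of genes above the minimum mean, with Trim67 between them. Gbp2 fell by 5.13 (SE 0.47), to 2.85% of wild type, and Gbp2b fell by 5.04 (SE 0.45), to 3.05%, in the authors' deposited table. Gbp3 fell by 4.45 (SE 0.56) and Gbp7 fell by 3.91 (SE 0.42) from lower means of 59.8 and 40.9 normalized counts. The interferon GTPases Irgm1 (-3.53, SE 0.38) and Tgtp1 (-2.46, SE 0.45), on other chromosomes, fell too. In all 9 of 21 genes of these families fell and 0 rose. Among the neighbours of the Gbp cluster, Gtf2b (0.04) and Pkn2 (0.06) were not called, Pdlim5 fell by 0.22 (SE 0.07) and Kyat3 rose by 0.31 (SE 0.10).

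Of 15 antigen presentation genes 6 fell and 2 rose. Psmb8, a subunit of the immunoproteasome, fell by 4.84 (SE 0.50), to 3.5% of the wild-type level, in the authors' deposited table. The peptide transporter gene Tap2 fell by 1.98 (SE 0.27), B2m, the light chain of class I molecules, by 1.31 (SE 0.18) and Psmb10 by 1.29 (SE 0.24). Psmb9 (-0.48, SE 0.26), Tap1 (0.03, SE 0.13) and H2-K1 (-0.24, SE 0.20) were not called, and H2-D1 rose by 0.31 (SE 0.10). Ciita, which switches on class II genes, rose by 1.06 (SE 0.31) from a low mean of 18.6 normalized counts. The interferon-stimulated genes as a group moved less, with 9 of 24 lower and 3 higher. Among them the chemokine Cxcl10 fell by 3.05 (SE 0.52), the viral RNA sensor Ifih1 fell by 3.29 (SE 0.71), Oasl2 by 2.34 (SE 0.27), Bst2 by 1.13 (SE 0.13) and the factor Irf1 by 0.99 (SE 0.10). The upstream parts changed less: the receptor Ifnar1 fell by 0.27 (SE 0.04) and Irf9 by 0.16 (SE 0.07), and Stat2 rose by 0.16 (SE 0.05).

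Actin genes and targets of serum response factor had many more falls than rises. Of 46 genes, in a list made after the values were seen, 31 fell and 4 rose, with a median of -0.31 in the authors' deposited table. The muscle actins Actc1 (-3.07, SE 0.50), Acta1 (-2.78, SE 0.48) and Acta2 (-1.90, SE 0.34), the actin-binding calponin Cnn1 (-2.32, SE 0.36) and the matricellular protein Thbs1 (-2.32, SE 0.34) fell most. Tpm1 (-1.07, SE 0.20), Flna (-0.64, SE 0.08), Vcl (-0.62, SE 0.10) and Actb (-0.24, SE 0.06) fell at high means. Acta1 had the widest SE of any called gene above the minimum mean. Srf itself fell by 0.25 (SE 0.07), and Yap1, a coactivator of some of these genes, was at -0.04 (SE 0.05, not called). The count of falls in this list was 12 against a null of 1.2-fold and 0 with the scaled statistic.

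Matrix and adhesion genes were split. Of 60 collagens and other matrix genes 17 rose and 15 fell, with a median of 0.06. The fibrillar collagens Col1a1 (-3.53, SE 0.47) and Col3a1 (-2.22, SE 0.37), the crosslinking enzyme Lox (-3.42, SE 0.46) and Tnc (-2.93, SE 0.55) fell in the authors' deposited table, opposite to the basement membrane collagens above. Col1a1, Col3a1 and Lox are also among the fibroblast markers, of which 5 of 9 fell, 0 rose and Thy1 (0.18) was not called, and the part of such cells in this result was not tested. Of 28 adhesion genes 13 fell and 3 rose. The fall took in both the mesenchymal cadherin Cdh2 (-1.53, SE 0.25) and the epithelial genes Epcam (-0.58, SE 0.06) and Cdh1 (-0.27, SE 0.05), while Snai1, a repressor of Cdh1, rose by 0.74 (SE 0.10). Vim and Fn1 were not called.

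Pparg rose by 4.44 (SE 0.34, adjusted p 8.73e-36) in the authors' deposited table, or 21.8-fold, with a 95% interval of 3.77 to 5.12 on the log2 scale. Its mean over the libraries was 85.7 normalized counts, so it stayed a rare transcript, below the minimum mean of 221. Of its neighbours within 500 kb 6 of 19 rose and 2 fell, beside 20.5% and 22% over all genes. Timp4 (0.65) was not called and Tmem40 rose by 0.82 (SE 0.12). Among receptors and coregulators 10 of 17 rose and 2 fell. Rxra, the partner of Pparg, rose by 0.59 (SE 0.06), Ncoa1 by 0.69 (SE 0.05) and Ncoa2 by 0.50 (SE 0.04). Cebpa, a factor that acts with Pparg in fat cells, rose by 0.90 (SE 0.17). Cebpd fell by 1.15 (SE 0.20). The related receptor Ppard rose by 0.11 (SE 0.05), and Ppara was at 0.43 (SE 0.19, not called).

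Known targets of PPAR receptors moved far less than Pparg. Of 26 listed 16 were measured, with a median of 0.16 in the authors' deposited table. Of the 16, 6 rose and 0 fell, beside 20.5% and 22% over all genes. With the minimum mean, 10 genes remained, of which 3 rose and 0 fell with a median of 0.04. Lpl, which releases fatty acids from lipoproteins, rose by 1.48 (SE 0.13), and the lipid droplet proteins Cidec and Cidea by 1.42 (SE 0.46) and 0.95 (SE 0.17). The means of Cidec and Cidea were low, at 10.0 and 100 normalized counts. Plin2 (-0.34, SE 0.21), Fabp3 (0.03, SE 0.08) and Cpt1a (-0.07, SE 0.07) were not called, and Cd36 and Adipoq are not in the table. Of 24 genes of fat storage and lipolysis 9 rose and 1 fell, with the lipase Mgll at 0.86 (SE 0.12) and Pnpla3 at 0.76 (SE 0.11). Of 25 genes of fatty acid oxidation 12 rose and 3 fell. Acaa2 rose by 1.06 (SE 0.09) and the carnitine carrier Slc25a20 by 0.94 (SE 0.05).

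Fatty acid and cholesterol synthesis went in different directions. The desaturase Scd1 rose by 0.78 (SE 0.06), the elongase Elovl6 by 0.54 (SE 0.06) and Acaca, which commits carbon to fat, by 0.27 (SE 0.08) in the authors' deposited table, whereas Fasn fell by 0.20 (SE 0.07). In all, 8 of 21 rose and 3 fell. Of 27 genes of cholesterol synthesis and uptake 16 fell and 2 rose, with a median of -0.14. The changes were small in the enzymes: Idi1 fell by 0.43 (SE 0.05) and Cyp51 by 0.34 (SE 0.05), and Sqle rose by 0.15 (SE 0.04). The controlling factor Srebf2 fell by 0.22 (SE 0.04).

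Ribosomal protein genes showed a very even, small fall. All 77 had values below 0 in the authors' deposited table, from -0.31 to -0.02, with a median of -0.12, and 54 were called lower and 0 higher. With the genotypes set to equal summed counts 41 of 77 were called lower and 0 higher. No ribosomal protein gene changed by 1.2-fold or more beyond its error. Ribosome biogenesis factors had 14 of 28 lower and 0 higher, with fibrillarin, Fbl, at -0.28 (SE 0.06). With equal summed counts this became 7 lower and 3 higher. Mitochondrial ribosomal proteins had 22 of 77 lower (28.6%) and 3 higher, and respiratory chain subunits had 20 of 75 lower (26.7%) and 3 higher. Both shares of falls lie between the 22% over all genes and the 32.7% to 34.3% of the abundant groups. Translation factors had 27 of 59 lower and 7 higher, which fell to 15 and 10 with equal summed counts.

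The parts of the mTOR pathway, the target of the drug that all groups received, moved little. Of 32 genes 10 fell (31%) and 5 rose (16%), near the shares of other abundant genes. Mtor (-0.01, SE 0.05) and Rptor (-0.02, SE 0.05) were not called in the authors' deposited table. The GTPase gene Rragb fell by 0.72 (SE 0.08), Rheb by 0.17 (SE 0.04) and the kinase Rps6kb1 by 0.23 (SE 0.04), while the inhibitors Deptor (0.36, SE 0.03), Sesn1 (0.63, SE 0.06) and Eif4ebp1 (0.29, SE 0.05) rose. Lysosome genes had 11 of 27 lower (40.7%) and 4 higher, beside 32.7% to 34.3% lower in the abundant groups. Scarb2, a lysosomal membrane protein, was at -0.69 (SE 0.06). Autophagy genes were even, with 10 of 29 higher and 9 lower, led by Gabarapl2 (0.80, SE 0.07). ATF4 targets had 8 of 25 higher and 6 lower.

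In the Myc family 6 of 12 genes rose and 3 fell. Mycn, the form most used by embryonic stem cells, fell by 1.06 (SE 0.07), to 47.9% of wild type, and Myc by 0.35 (SE 0.09) in the authors' deposited table. The antagonists Mxd4 (0.55, SE 0.10), Mga (0.25, SE 0.05) and Mnt (0.19, SE 0.04) rose, as did the shared partner Max (0.16, SE 0.04).

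Genes of DNA replication and mitosis were near the wild type. Of 29 replication genes 3 rose and 4 fell, with Mcm2 and Mcm5 both at 0.02 (SE 0.04) in the authors' deposited table and Pcna lower by 0.29 (SE 0.04). Of 22 mitosis genes 2 rose and 5 fell, and Mki67 was at -0.06 (SE 0.06, not called). Of 21 genes of G1 cyclins and CDK inhibitors 8 fell and 4 rose, with a median of -0.05. Some of them moved more. Cdk6 fell by 1.01 (SE 0.13), Ccnd2 by 0.56 (SE 0.12), Ccnd1 by 0.47 (SE 0.10) and the inhibitor Cdkn1a by 0.45 (SE 0.09). The inhibitor Cdkn1c rose by 0.84 (SE 0.16) and Ccnd3 by 0.24 (SE 0.08). Histone cluster genes, whose main transcripts lack a poly(A) tail, had 12 of 61 higher (19.7%) and 0 lower. The share higher was near the 20.5% over all genes, of which 22% were lower. Against a null of 1.2-fold, 1 was called higher. One of the 12 was H1f0, a linker variant made outside replication (0.49, SE 0.06), and over the 15 histone genes above the minimum mean the median was -0.07.

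Glycolysis and redox genes had more falls than rises, while hypoxia genes had more called rises than falls but a median just below 0. Glycolysis had 13 of 24 lower and 2 higher in the authors' deposited table, with the lactate exporter Slc16a3 at -0.83 (SE 0.14), Ldhb at -0.63 (SE 0.07) and Pfkfb3 at -0.57 (SE 0.13), while Hk1 rose by 0.31 (SE 0.05) and Gapdh and Ldha were not called. Of 21 redox genes 11 fell and 2 rose, with the cystine carrier Slc7a11 at -0.59 (SE 0.13) and glutathione reductase, Gsr, at -0.49 (SE 0.07). Hypoxia genes had 5 of 17 higher and 2 lower, beside 20.5% and 22% over all genes, with a median of -0.06. Of these 17, 7 had values above 0 and 10 below. The rises were led by Ndrg1 (1.27, SE 0.12) and Epas1 (0.74, SE 0.07). Chaperones had 10 of 24 lower (41.7%) and 4 higher, beside 32.7% to 34.3% lower in the abundant groups. Targets of p53 had 8 of 23 lower (34.8%) and 3 higher, near those shares of falls. Perp was at -1.07 (SE 0.21) and Trp53 at -0.05 (SE 0.04, not called).

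Chromatin regulators shifted slightly upward. Of 30 Polycomb and H3K9 silencing genes 15 rose and 5 fell, with a median of 0.10 in the authors' deposited table. Suz12, a core subunit of Polycomb complex 2, rose by 0.58 (SE 0.04), Bmi1 by 0.88 (SE 0.11) and Cbx8 by 1.15 (SE 0.14), both of complex 1, and Ezh2 by 0.16 (SE 0.04), whereas the H3K9 methyltransferases Suv39h1 and Suv39h2 fell by 0.30 (SE 0.05) and 0.34 (SE 0.07). Of 19 DNA methylation genes 8 rose and 3 fell, with Dnmt3l at 0.39 (SE 0.07) and Dnmt3a at 0.34 (SE 0.07), and with Dnmt1 (0.02) and Dnmt3b (-0.10) not called.

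Several large changes fall outside these groups. Trh, the precursor of thyrotropin-releasing hormone, fell by 1.51 (SE 0.07) at a mean of 6227 normalized counts in the authors' deposited table. Hmga1, an architectural chromatin protein gene, fell by 0.61 (SE 0.05) at 23240, and its reads can be shared with near-identical copies. Sema6a, a guidance receptor ligand, fell by 2.86 (SE 0.41), Ltb, a lymphotoxin gene, fell by 2.77 (SE 0.36) and Fndc3c1 fell by 3.01 (SE 0.31). Rises were those of Epn3, an endocytic adaptor (2.82, SE 0.20), Fbp2, an enzyme of glucose synthesis (2.42, SE 0.16), Sct, the hormone secretin (2.57, SE 0.20), Dlx3, a homeobox gene of placenta and skin (2.39, SE 0.19) and Mypn (2.15, SE 0.10).

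The change in paused cells was set beside that in control cells, from libraries of the same 3 genotypes without INK128, to show where pausing mattered. Among control cells 41.4% of genes were called. The difference of the log2 changes passed the threshold for 275 genes, 1.44% of the 19134 in both tables (normal test on the combined SE, two-sided, Benjamini-Hochberg), with 49.8% of them higher in paused cells and 35.9% when the genotypes were set to equal summed counts. The BMP targets Id1 and Id3 rose further in paused cells, by 0.91 against 0.43 and by 0.80 against 0.45 in the authors' deposited tables (adjusted p of the difference 0.000357 and 0.00177). Gata2 rose by 2.27 against 1.16 (adjusted p 2.94e-05) and Cubn by 2.20 against 1.16 (adjusted p 0.0144).

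Some genes were called in 1 condition and not in the other, with a difference that passed. Kitl, the ligand of the Kit receptor, rose by 0.80 in paused cells and was at -0.02 in control cells in the authors' deposited tables (adjusted p of the difference 0.00177), and Cdkn1c rose by 0.84 and was at 0.12 (adjusted p 0.0282). Smad3 was not called in paused cells at -0.21 and rose by 0.26 in control cells (adjusted p 0.00604). Mycn fell further in paused cells, by 1.06 against 0.66 (adjusted p 0.000963), as did Ski, by 0.68 against 0.36 (adjusted p 0.00298), and Scarb2, by 0.69 against 0.32 (adjusted p 4.25e-05). The named genes with the largest paused changes mostly had no called difference: H19 differed by 0.02 (SE 0.12), Sp5 by -0.56 (SE 0.57), Gbp2 by -0.64 (SE 0.62), Pparg by 1.18 (SE 0.49, adjusted p 0.237) and Plac1 by 1.29 (SE 0.40, adjusted p 0.0701). The intervals of these differences are wide for the rare genes, so a p above the threshold does not show that the changes were alike.

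**Figure D5:**
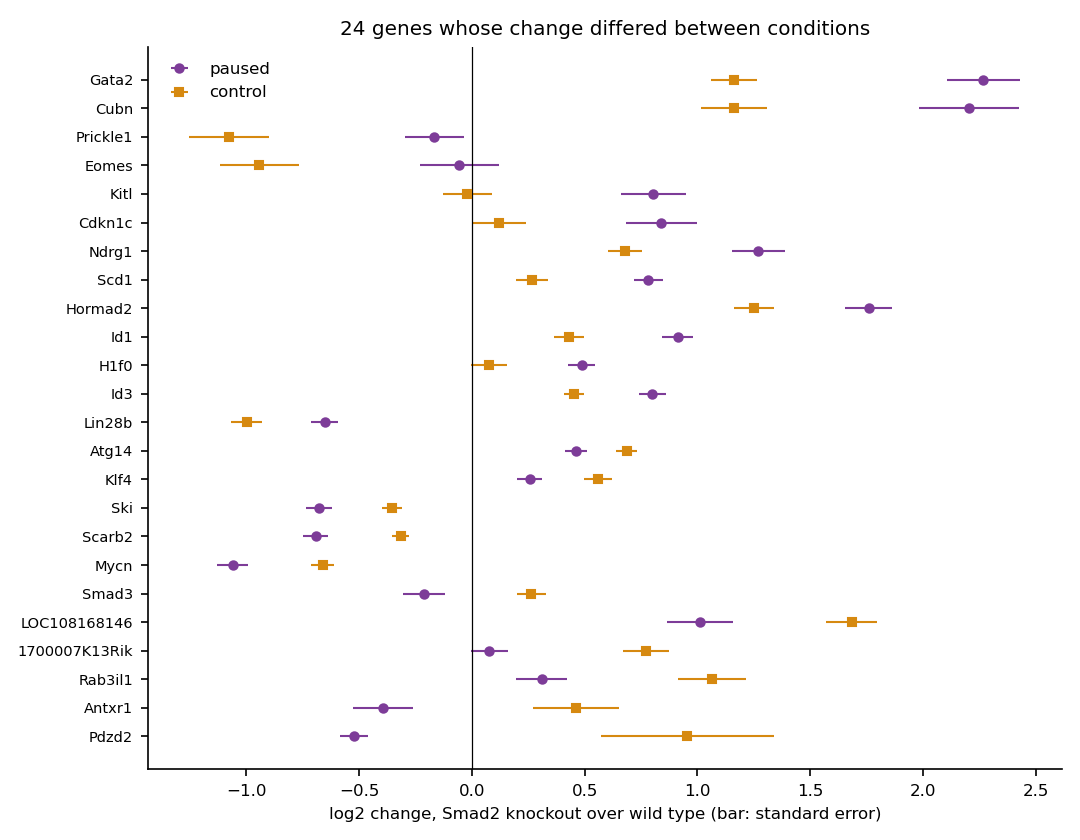
The x axis is the log2 change of knockout over wild type, as purple circles in paused and orange squares in control cells, with standard errors as bars, for 24 named genes whose change differed between the conditions. Gata2 and Cubn lie farther right in paused cells, at 2.27 and 2.20 against 1.16 each, and Pdzd2 and Antxr1 lie on opposite sides of 0. Trim30c is left out for its wide error.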

How the data were processed

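Poly(A) RNA was measured in 12 paused libraries of the 24 in the series, from 50000 live cells each, per the labels' protocols. Per the submitters' processing notes, FastQC, Trim Galore, HISAT2, featureCounts and DESeq2 were used with the mm10 build. Parameters and versions are not given in the sources used here, and the notes assign no roles. The authors deposited 1 results table per condition. Its mean normalized count is a signal value averaged by the authors. Its log2 change and standard error are on the log2 scale, per the file headers, and its Wald statistic is a score the authors deposited. The authors also gave each gene's p-value and its adjusted p-value. The statistic was checked to be the change over its standard error, and 0 adjusted values differed by over 1 percent from a recomputed Benjamini-Hochberg one. The tables hold no library counts, so the planned count tests gave way to the deposited tests, the depth is unknown, and the libraries that entered each mean are not stated.

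Genes were called at an adjusted p under 0.05. The difference between conditions was tested against its combined standard error, taken from both tables as independent (normal test, two-sided, Benjamini-Hochberg), with scipy 1.17.1, numpy 2.4.6, pandas 2.3.3 and Python 3.11.15. This step was tested on simulated data. The members and the 55 gene lists were chosen with earlier results of these data known, and 5 further lists after their values were seen. Named genes were Smad2, Pparg, the 15 largest rises and 15 largest falls at or above the minimum mean of 221 counts, which is 5 ppm of all means summed, the 10 most abundant changes of at least 1.5-fold, the 10 largest statistics, 6 called genes per list, 5 per direction of the difference, and list members whose role is explained. The neighbours of H19, Rex2, the Lefty genes, Pparg and the Gbp genes were chosen after their values were seen, in windows of unequal size. Alternatives were other thresholds on p and size, the minimum mean, a null of 1.2-fold, a statistic scaled to its middle spread, equal summed counts and median centring. RefSeq GRCm38.p6 gave coordinates and promoters, and 92.3% of symbols matched it. Figures used matplotlib. Some genes are not reported here.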

Additional observations from a re-analysis of the deposited data

Results flagged for a closer look

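The change of knockout over wild type differed between paused and control cells for 275 genes, by the test of the difference itself. Values here are the paused log2 change minus the control one, from the authors' deposited tables. Among the genes named, the paused value was higher for Gata2 by 1.11, Cubn by 1.04, Prickle1 by 0.91, Eomes by 0.89, Kitl by 0.82, Cdkn1c by 0.72, Ndrg1 by 0.59, Scd1 by 0.52, Hormad2 by 0.51, Id1 by 0.48, H1f0 by 0.41, Id3 by 0.35 and Lin28b by 0.35. The difference was negative for Pdzd2 (-1.48), Antxr1 (-0.85), Rab3il1 (-0.76), 1700007K13Rik (-0.69), LOC108168146 (-0.67), Smad3 (-0.48), Mycn (-0.40), Scarb2 (-0.38), Ski (-0.32), Klf4 (-0.30) and Atg14 (-0.23). Trim30c differed by 8.21 with a standard error of 2.25, at a mean of 3.19 normalized counts in the paused table.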

How the results depend on the processing

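The count of 8504 called genes was 1418 at 2-fold or more, 2122 against a null of 1.2-fold and 450 when the statistic was scaled by the spread of its middle values. It was within 1.5 times at an adjusted p under 0.01 (6451), with the minimum mean (5834, of which 38.1% were higher, beside 48.2% of all calls), equal summed counts (8215, 57.6% higher) and median centring (8485). The 275 genes that differed between conditions became 102 at an adjusted p under 0.01, 28 at 2-fold or more, 2 against the null of 1.2-fold, 35 with the scaled statistic, 320 with the minimum mean, 295 with equal sums and 273 with centring. Smad2 and Pparg kept their direction and call under the null of 1.2-fold, the scaled statistic, equal sums and centring. Of the 374 named genes that were called, 0 changed sign, and calls were lost for 279 with the scaled statistic, 221 at 2-fold, 161 against the null of 1.2-fold, 28 at an adjusted p under 0.01, 8 with equal sums and 1 with centring. The scaled statistic left 1 lower call in place of 54 among ribosomal proteins, 0 in place of 16 in cholesterol synthesis and 0 in place of 13 in glycolysis. No paired analysis was possible because the deposited tables hold no value of a single library, and leaving out a replicate was not run for the same reason. Depth per library is unknown, and rare transcripts have wide errors, with a median standard error of 0.56 in the lowest of 10 groups by mean count and 0.04 in the highest.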
